A study of Mus musculus with 24 samples.

Results

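The kidney response to mutant uromodulin was followed between 1 and 2 months of age in female mice, by asking for which genes the difference between mutant and control kidneys was not the same at the later and the earlier age. All 16 arrays of females were used, out of 24 in the series, with 4 mice in each of 4 groups. TgUmodC147W F2 and TgUmodwt F2 are females of 2 months, and TgUmodC147W F1 and TgUmodwt F1 are females of 1 month, all on the FVB background. TgUmodC147W mice carry a transgene for uromodulin with a tryptophan in place of a cysteine, and TgUmodwt mice carry the matching transgene for wild type uromodulin, so that every mouse makes uromodulin from a transgene besides its own gene. Both transgenes are driven by a fragment of the mouse Umod promoter and carry an HA tag, so the product is made in the thick ascending limb while the RNA measured comes from the whole kidney. Each genotype is a transgenic line, and effects of a line's insertion site cannot be told apart from those of its transgene. Each mouse gave 1 array of total kidney RNA. No chip position or collection time of a mouse is given in the sources used here.

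Uromodulin is the main secreted protein of the thick ascending limb, a segment that reabsorbs salt without water. Mutant forms fold poorly and are held back in the endoplasmic reticulum of these cells, and in people they cause a dominant disease with interstitial inflammation, fibrosis and loss of tubules. Most of the RNA of a whole kidney comes from another segment, the proximal tubule, which reabsorbs solutes, burns fatty acids and amino acids, and carries many detoxifying enzymes whose expression matures after weaning and differs between the sexes.

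The quantity reported is the interaction on the log2 scale: the difference of TgUmodC147W F2 from TgUmodwt F2, minus the difference of TgUmodC147W F1 from TgUmodwt F1. A positive value means that mutants stood higher, relative to controls of their own age, at 2 months than at 1 month. A negative value means that they stood lower. A level is a background-corrected, quantile-normalized log2 signal of 1 probe, on a scale that ran from 4.58 to 16.02, and levels of different genes are not comparable. A gene was represented by its brightest expressed probe, and it was called where the adjusted p of limma was under 0.05 over all expressed probes.

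On the 16 arrays, 35.8 to 38.3% of the probes were detected (detection p under 0.01). Median raw intensities were 139.7 to 176.6 at 2 months and 114.6 to 130.8 at 1 month, so raw brightness moved with age, and its part in the results was not tested. All 12 measured genes of the thick ascending limb list were expressed, and Umod lay between 15.66 and 15.95 on every array. Of neighbouring tissues, Acta1, Ckm and Myh4 of skeletal muscle and Cyp11a1 and Star of the adrenal cortex were not detected on any of the 16 arrays, Cyp11b1 of the adrenal cortex was on 1 (highest level 6.44), and Adipoq of fat was on all 16 (7.41 to 10.17). No expressed gene of the skeletal muscle (2), adrenal cortex (2) or fat (4) lists passed the interaction test. 1 array went against its label. TgUmodC147W F1 replicate 2 had Xist, the RNA that coats the inactive X of females, at 4.80 to 5.19 over 4 probes, against 9.00 to 12.74 in the other 15 females and 4.70 to 5.79 in the 8 males of the series. The Y-linked Kdm5d probe that was raised in males (6.45 to 7.50) stood at 4.85 on this array, a level like that of the other females (4.78 to 5.15). Results below are therefore also given without it.

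Of 10148 genes with an expressed probe, 82 (0.808%) passed the interaction test with a positive value and 50 (0.493%) with a negative one. Over 2-fold, these were 46 (0.453%) and 22 (0.217%). At an unadjusted p under 0.05 there were 1340 genes, and the median interaction of all genes was -0.02. Without TgUmodC147W F1 replicate 2 the counts were 49 (0.483%) and 23 (0.227%), of which 48 and 23 were among the first. The direction of the majority depended on the scaling. With arrays scaled to a common median in place of quantile normalization, 46 genes were positive and 67 negative, so that positive calls made up 40.7% of all calls instead of 62.1%. In that setting the median difference of 2 months from 1 month over all genes was 0.15 in TgUmodwt, and the median interaction was -0.09.

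The calls at each age were far more numerous than those of the interaction. At 2 months, 602 genes (5.93%) were higher and 358 (3.53%) lower in mutants. At 1 month, 1247 (12.3%) were higher and 928 (9.14%) lower. The same direction was called at both ages for 666 genes, which were 69.4% of those called at 2 months and 30.6% of those called at 1 month, and opposite directions for 2. Of the 1507 genes called at 1 month and not at 2 months, 104 passed the interaction test, and of the 292 called at 2 months and not at 1 month, 14 did. Most genes called at 1 age alone thus did not pass the test of the difference between the ages. Over all genes the genotype differences at 2 and 1 months correlated at r = 0.62, a description across genes, which are not independent. Genes called at 1 month had a median absolute difference of 0.26 at 2 months and 0.53 at 1 month, where the 1-month arrays had chosen them, and 1919 of the 2175 kept their sign.

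**Figure D1:**
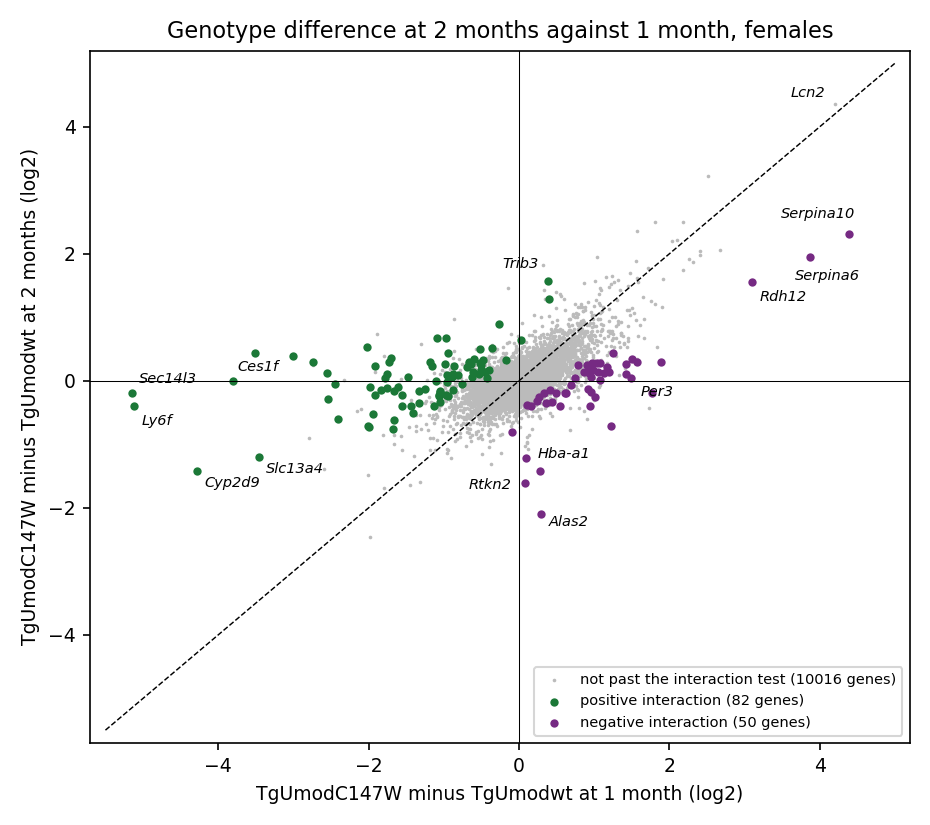
Genotype difference (TgUmodC147W minus TgUmodwt, log2) at 2 months on the vertical axis against 1 month on the horizontal axis, 1 point per gene of 10148; the dashed line marks equal differences. The 82 genes with a positive interaction lie mostly left of the centre near a height of 0, and the 50 with a negative one mostly right of it, while Lcn2 (4.37 at 2 months and 4.21 at 1 month) lies close to the line.

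The 132 genes mostly had a difference at 1 month that was smaller at 2 months. This held for 118 of them, and in 103 the difference at 2 months was under 0.5. Of the 82 positive genes, 76 were lower in mutants at 1 month, and of these 66 were not called at 2 months, 9 were still lower and 1, Kansl1l, was higher. Of the 50 negative genes, 42 were higher in mutants at 1 month, and of these 38 were not called at 2 months, 3 (Serpina10, Serpina6 and Rdh12) were still higher and 1, Tro, was lower. Tro was detected in 1 TgUmodC147W F1 mouse and in no other female, so its change of direction rests on signals at background. The remaining 14 were called at 2 months only, 6 higher (Trib3, Ttc39a, Cdc20, Cldn3, Capg, Entpd2) and 8 lower (Alas2, Hbb-b2, Hba-a1, Rtkn2, Cyp4a14, Dusp11, Adamts9, Purg). Besides Tro, the negative genes Mro, Cd163, Lingo4, Fignl1, Htr2b, Rnase2a, Cdc45, Tmtc2, Cyp4a12b, Pole and Cdc6 were detected among females only in TgUmodC147W F1. They passed the detection filter only through the group where they were high, so that filter partly set the count of negative genes. With detection required on at least 4 of the 16 arrays, 90 positive and 43 negative genes passed.

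More genes were called between the ages in mutants than in controls. Among all genes, 849 (8.37%) were higher and 959 (9.45%) lower at 2 months than at 1 month in TgUmodC147W, against 170 (1.68%) higher and 215 (2.12%) lower in TgUmodwt. This gap narrowed with scaling to a common median, with 1052 higher and 543 lower in TgUmodC147W and 898 higher and 145 lower in TgUmodwt. Of the positive genes, 75 were called higher at 2 months in mutants, while in controls 69 were not called, 7 were higher and 6 lower. Of the negative genes, 46 were called lower at 2 months in mutants, while in controls 41 were not called, 7 were lower and 2 higher. In a principal component analysis of the 19017 expressed probes, the first component (38.8% of the variance) placed TgUmodC147W F2 at -9.30 to -2.30 and TgUmodwt F2 at -27.84 to -23.57. It placed TgUmodC147W F1 at 31.35 to 48.02 and TgUmodwt F1 at -11.88 to -2.81. On this component the mutants of 1 month lay apart at one end and the controls of 2 months at the other. The second component (16.5%) placed TgUmodC147W F2 at 22.39 to 25.49, apart from the other groups at -21.81 to 1.72.

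Sec14l3, of the SEC14-like family of lipid-binding proteins, had the largest positive interaction, 4.97 ± 0.71 (SE; limma, adjusted p = 0.00293). Its levels were 10.53, 11.60, 10.94 and 10.49 in TgUmodC147W F2 mice and 11.63, 10.25, 10.81 and 11.61 in TgUmodwt F2 mice. At 1 month they were 4.79, 4.98, 4.79 and 6.84 in TgUmodC147W F1 mice and 10.48, 9.87, 9.68 and 11.97 in TgUmodwt F1 mice. The groups overlapped at 2 months and did not overlap at 1 month, when the probe was detected in 1 of 4 mutants. Ly6f, a membrane-anchored surface protein of the Ly6 family, had an interaction of 4.73 ± 0.51 (adjusted p = 0.000218). It measured 9.87, 10.96, 9.46 and 9.28 in TgUmodC147W F2 mice and 10.92, 10.03, 10.49 and 9.68 in TgUmodwt F2 mice, against 5.33, 5.36, 5.28 and 6.57 in TgUmodC147W F1 mice and 10.96, 10.26, 10.57 and 11.25 in TgUmodwt F1 mice. Again only the mutants of 1 month were low. Other expressed probes of these genes gave 2.87 and 2.91 for Sec14l3 and 3.68 for Ly6f, all past the test. Scgb1c1, a small secreted secretoglobin, followed with 3.94 ± 0.60 (adjusted p = 0.00334), and averaged 10.00 ± 0.20 in TgUmodC147W F2, 9.56 ± 0.46 in TgUmodwt F2, 5.60 ± 1.11 in TgUmodC147W F1 and 9.11 ± 0.68 in TgUmodwt F1 (SD, n = 4 each). Ly6f and Scgb1c1, too, were each detected in 1 of 4 TgUmodC147W F1 mice, so the exact sizes of these differences rest on a group at background.

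In each of these genes TgUmodC147W F1 replicate 4 was the highest mutant of 1 month. It was so in 62 of the 76 positive genes that were low in mutants at 1 month, against 6, 3 and 5 genes for replicates 1, 2 and 3, and it was the lowest of the mutants in 21 of the 42 negative genes that were high, against 8, 2 and 11. Without this array the interaction counts were 202 positive and 103 negative, with 81 and 50 of the first calls among them. Without TgUmodC147W F1 replicate 2, the array with no Xist signal, Sec14l3 had 4.84 (adjusted p = 0.00811), Ly6f 4.64 (adjusted p = 0.000983) and Scgb1c1 3.74 (adjusted p = 0.00961).

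**Figure D2:**
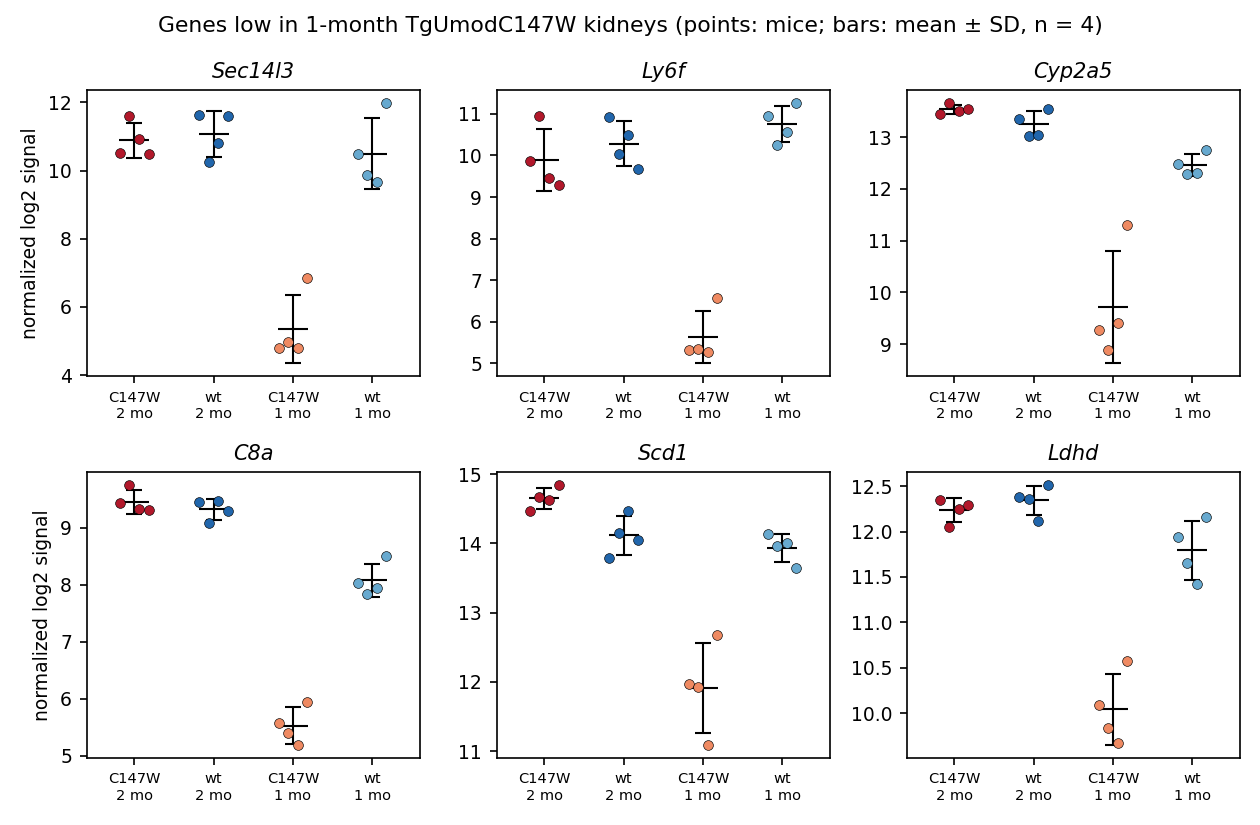
Normalized log2 signal of 6 genes with a positive interaction in each mouse (points), with mean and SD of 4 mice per group (bars); vertical axes start above 0. In every panel the 4 TgUmodC147W mice of 1 month are the low group, and the groups of 2 months overlap.

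Cyp2a4 and Cyp2a5, cytochromes P450 of 1 subfamily that hydroxylate testosterone and coumarin, had interactions of 3.39 ± 0.61 (adjusted p = 0.0111) and 3.04 ± 0.49 (adjusted p = 0.00593). Cyp2a5 measured 13.45, 13.65, 13.51 and 13.55 in TgUmodC147W F2 mice and 13.35, 13.03, 13.05 and 13.55 in TgUmodwt F2 mice. At 1 month it measured 9.28, 8.88, 9.40 and 11.31 in TgUmodC147W F1 mice and 12.48, 12.29, 12.31 and 12.76 in TgUmodwt F1 mice. These paralogs are nearly identical in sequence, and the array may not separate them. The other 4 Cyp2a5 probes gave 0.97 to 3.49, all past the test. Cyp2d9, a steroid hydroxylase, had 2.86 ± 0.42 (adjusted p = 0.00334) and differs from these in that mutants were still lower at 2 months, with 8.88 ± 0.45 in TgUmodC147W F2 and 10.30 ± 0.47 in TgUmodwt F2, against 5.82 ± 0.64 in TgUmodC147W F1 and 10.10 ± 0.33 in TgUmodwt F1. It was detected in 1 of 4 TgUmodC147W F1 mice, whose mean lies at background.

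Of the 23 expressed members of the list of cytochromes P450, 4 passed as positive and 3 as negative, and the median interaction of the list was -0.15. The fourth positive member was Cyp4f14, a fatty acid hydroxylase named after its value was seen (1.51, adjusted p = 0.0264) and not detected in any TgUmodC147W F1 mouse, and the negative ones were Cyp27b1, Cyp4a12b and Cyp4a14. Cyp4a14, a fatty acid hydroxylase more abundant in female kidneys, averaged 13.14 ± 0.28 in TgUmodC147W F2 and 13.95 ± 0.10 in TgUmodwt F2, against 13.47 ± 0.11 in TgUmodC147W F1 and 13.57 ± 0.02 in TgUmodwt F1 (interaction -0.71 ± 0.16, adjusted p = 0.0376). This call held in 5 of the 16 fits that each left out 1 array (0.0495 without TgUmodC147W F1 replicate 2) and was lost with scaling to a common median (adjusted p = 0.0895). Among females, Cyp4a12b was detected in 2 of 4 TgUmodC147W F1 mice and in no other group, and its value of -0.93 rests on signals near background. The carboxylesterase Ces1f, which splits lipid and drug esters, had 3.80 ± 0.73 (adjusted p = 0.0182), with 11.30 ± 0.22 in TgUmodC147W F2, 11.30 ± 0.16 in TgUmodwt F2, 7.63 ± 1.68 in TgUmodC147W F1 and 11.43 ± 0.22 in TgUmodwt F1. The glycosyltransferase Ugt3a1, which conjugates steroids and bile acids, had 1.42 ± 0.30 (adjusted p = 0.0278), while its other expressed probe gave 0.48 and did not pass. Ugt3a1 was the only one of 32 expressed members of its list of conjugating enzymes to pass. These values without TgUmodC147W F1 replicate 2 were 3.26 for Cyp2a4 (adjusted p = 0.029), 2.76 for Cyp2a5 (0.0108), 2.69 for Cyp2d9 (0.00813), 3.53 for Ces1f (0.0424) and 1.21 for Ugt3a1 (0.0441), while Cyp4f14 no longer passed (adjusted p = 0.0603).

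Slc22a7, a carrier of organic anions, was the only one of 32 expressed genes of the proximal tubule list past the test (2.02 ± 0.31, adjusted p = 0.00334). It measured 11.19, 10.85, 10.78 and 11.02 in TgUmodC147W F2 mice and 10.55, 10.37, 10.73 and 11.01 in TgUmodwt F2 mice, against 8.34, 8.00, 8.07 and 9.14 in TgUmodC147W F1 mice and 10.14, 9.92, 9.86 and 10.56 in TgUmodwt F1 mice. The list's median interaction was 0.16, and 7 members were lower in mutants at 2 months against 12 at 1 month. Slc13a4, a sodium-coupled sulfate carrier, had 2.26 ± 0.46 (adjusted p = 0.0251) and remained lower in mutants at 2 months, with 10.05 ± 0.39 in TgUmodC147W F2 and 11.26 ± 0.47 in TgUmodwt F2, against 7.51 ± 0.83 in TgUmodC147W F1 and 10.97 ± 0.32 in TgUmodwt F1. Slc22a7 without TgUmodC147W F1 replicate 2 had 1.89 (adjusted p = 0.00944) and Slc13a4 2.01 (adjusted p = 0.0495).

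Among lipid genes, Scd1, the desaturase that makes monounsaturated fatty acids, had an interaction of 2.55 ± 0.33 (adjusted p = 0.00118). It measured 14.47, 14.67, 14.62 and 14.84 in TgUmodC147W F2 mice and 13.79, 14.15, 14.47 and 14.05 in TgUmodwt F2 mice, against 11.97, 11.92, 11.09 and 12.68 in TgUmodC147W F1 mice and 14.13, 13.96, 14.00 and 13.65 in TgUmodwt F1 mice. Mutants were 4.05-fold lower at 1 month, and at 2 months the genotype difference was 0.53 and did not pass (adjusted p = 0.187). No other of the 26 expressed genes of cholesterol and fatty acid synthesis passed, and the list's median was -0.12. Of 46 expressed genes on the peroxisome list and 26 on that of mitochondrial fatty acid oxidation, none passed the interaction test, although 14 and 6 of them were lower in mutants at 1 month and 5 and 5 at 2 months. These lists do not hold every gene of their pathways. Ehhadh, a bifunctional enzyme of peroxisomal oxidation, had 0.95 ± 0.37 (adjusted p = 0.258), and Acox3, a peroxisomal oxidase, 0.13 ± 0.14 (adjusted p = 0.784). Outside these lists, and named after their values were seen, the apolipoproteins Apoc3 (1.70, adjusted p = 0.00899) and Apoa4 (1.39, adjusted p = 0.0117) and the enoyl-CoA isomerase Eci3 of fatty acid oxidation (1.33, adjusted p = 0.00987) passed. They did so without TgUmodC147W F1 replicate 2 too (adjusted p = 0.0141, 0.0293 and 0.0155). Apoa4 was not detected in any TgUmodC147W F1 mouse, and its value rests on signals near background.

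Enzymes of amino acids and lactate gave smaller positive values. Ldhd, which oxidises D-lactate, had 1.64 ± 0.25 (adjusted p = 0.00334). It measured 12.35, 12.05, 12.25 and 12.29 in TgUmodC147W F2 mice and 12.38, 12.36, 12.12 and 12.51 in TgUmodwt F2 mice, against 10.09, 9.84, 9.67 and 10.57 in TgUmodC147W F1 mice and 11.94, 11.65, 11.42 and 12.16 in TgUmodwt F1 mice, and its other expressed probes gave 1.38 and 1.63. Ddc, which makes dopamine in the proximal tubule, had 1.04 ± 0.20 (adjusted p = 0.0204), with 12.24 ± 0.19 in TgUmodC147W F2, 12.64 ± 0.28 in TgUmodwt F2, 11.21 ± 0.21 in TgUmodC147W F1 and 12.64 ± 0.18 in TgUmodwt F1. Haao, an enzyme of tryptophan breakdown, had 0.83 ± 0.18 (adjusted p = 0.0326). Other expressed probes gave 0.97 for Ddc, and 0.74 and 0.86 for Haao, none past the test. Ddc and Haao were the 2 of 51 expressed genes of the amino acid list past the test, with a list median of 0.10, while 26 members were lower in mutants at 1 month and 9 at 2 months. Outside the list, and named after their values were seen, Uroc1 (1.80, adjusted p = 0.0264) and Ftcd (1.29, adjusted p = 0.0242) act in histidine breakdown. Ldhd without TgUmodC147W F1 replicate 2 had 1.58 (adjusted p = 0.00961), Ddc 0.96 (0.0441), Haao 0.69 (0.0465) and Ftcd 1.13 (0.0421), while Uroc1 did not pass (0.0514). Haao passed in 5 of the 16 fits that each left out 1 array, and did not with scaling to a common median (adjusted p = 0.0862).

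C8a, the alpha chain of the complement protein C8 of the membrane attack complex, had the smallest adjusted p of all genes (2.68 ± 0.23, adjusted p = 2.09e-05). It measured 9.43, 9.75, 9.33 and 9.31 in TgUmodC147W F2 mice and 9.46, 9.08, 9.47 and 9.29 in TgUmodwt F2 mice, against 5.58, 5.39, 5.19 and 5.95 in TgUmodC147W F1 mice and 8.04, 7.84, 7.95 and 8.50 in TgUmodwt F1 mice. The probe was not detected in any mutant of 1 month. TgUmodC147W F1 was at least 3.07-fold lower than TgUmodwt F1, a bound set against the lowest signal of a detected probe of each array (6.39 to 6.67). It was the only one of 15 expressed complement genes past the test, and without TgUmodC147W F1 replicate 2 it had 2.64 (adjusted p = 0.000111). Of the complement genes that were higher in mutants at both ages, C1qa and C1qc of the recognition complex had interactions of 0.06 and -0.02.

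Further genes of the positive side were Fam107a, an actin-associated protein (2.40 ± 0.34, adjusted p = 0.00273), BC048644 (2.25 ± 0.39, adjusted p = 0.00915), Higd1c of the hypoxia-inducible domain family (2.14 ± 0.51, adjusted p = 0.048) and the amino acid decarboxylase Ldc1 (2.06 ± 0.48, adjusted p = 0.0459). Fam107a averaged 12.08 ± 0.19 in TgUmodC147W F2, 12.12 ± 0.40 in TgUmodwt F2, 9.50 ± 0.60 in TgUmodC147W F1 and 11.95 ± 0.20 in TgUmodwt F1. Id2, an inhibitor of helix-loop-helix factors, was lower in mutants at both ages, less so at 2 months (0.72 ± 0.13, adjusted p = 0.0153). Its other expressed probes gave 0.61 and 0.62 and did not pass. Cryab, a small heat shock protein, averaged 12.21 ± 0.20 in TgUmodC147W F2 and 11.92 ± 0.22 in TgUmodwt F2, against 11.77 ± 0.13 in TgUmodC147W F1 and 12.29 ± 0.09 in TgUmodwt F1 (0.81 ± 0.17, adjusted p = 0.0253). When TgUmodC147W F1 replicate 2 was left out, Higd1c (adjusted p = 0.0992) and Ldc1 (0.0969) did not pass, while Fam107a (0.00675), BC048644 (0.0224), Id2 (0.0344) and Cryab (0.0431) did.

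Trib3, a pseudokinase induced by ATF4 in the integrated stress response, was among the few genes whose excess in mutants appeared with age. It measured 7.24, 7.69, 7.57 and 7.77 in TgUmodC147W F2 mice and 5.96, 5.91, 6.10 and 5.99 in TgUmodwt F2 mice, against 6.06, 6.51, 6.47 and 6.21 in TgUmodC147W F1 mice and 6.27, 5.76, 6.01 and 5.68 in TgUmodwt F1 mice. The groups were apart at 2 months and overlapped at 1 month. The probe was not detected in any control. TgUmodC147W F2 was at least 1.97-fold higher than TgUmodwt F2, and the fitted interaction was 1.20 ± 0.20 (adjusted p = 0.00627), or 1.26 (adjusted p = 0.00938) without TgUmodC147W F1 replicate 2. It was the only one of 21 expressed genes of the ATF4 list past the test, and the list median was 0.16. Atf5, a transcription factor of the same response, and Chac1, a glutathione-degrading enzyme, were named after their values were seen and did not pass. Atf5 measured 11.12, 11.72, 11.41 and 11.47 in TgUmodC147W F2 mice and 9.98, 9.81, 10.11 and 10.31 in TgUmodwt F2 mice, against 10.38, 10.80, 10.40 and 10.74 in TgUmodC147W F1 mice and 10.06, 9.68, 10.20 and 10.21 in TgUmodwt F1 mice (0.83 ± 0.21, adjusted p = 0.0653). Chac1 had 0.78 ± 0.26 (adjusted p = 0.172). Atf4 itself had 0.04, and of 19 expressed chaperones and folding enzymes of the endoplasmic reticulum none passed, with values of -0.40 to 0.27. Ttc39a, also named after its value was seen, had 1.15 ± 0.15 (adjusted p = 0.00155).

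On the negative side, the serpins Serpina6, which carries corticosteroids in plasma, and Serpina10, an inhibitor of clotting proteases, were higher in mutants at both ages, and less so at 2 months. Serpina6 measured 10.60, 9.82, 10.03 and 10.32 in TgUmodC147W F2 mice and 8.35, 8.26, 8.43 and 7.96 in TgUmodwt F2 mice, against 15.22, 15.21, 15.35 and 14.77 in TgUmodC147W F1 mice and 11.02, 12.05, 10.92 and 11.05 in TgUmodwt F1 mice. Mutants were 3.85-fold higher at 2 months and 14.7-fold at 1 month (interaction -1.93 ± 0.31, adjusted p = 0.00593). Its levels fell with age in both genotypes, with differences between the ages of -4.94 in mutants and -3.01 in controls. Serpina10 measured 10.37, 10.46, 10.59 and 10.25 in TgUmodC147W F2 mice and 8.44, 7.56, 7.70 and 8.70 in TgUmodwt F2 mice, against 11.62, 12.16, 11.69 and 10.27 in TgUmodC147W F1 mice and 6.67, 7.06, 6.66 and 7.80 in TgUmodwt F1 mice (-2.07 ± 0.49, adjusted p = 0.0461). With age it changed by -1.02 in mutants (adjusted p = 0.0518) and by 1.06 in controls (adjusted p = 0.114), neither past the test. They were the 2 of 13 expressed serpins past the test. Serpina3n, an acute phase inhibitor higher in mutants at both ages, had -0.61 (adjusted p = 0.498). Rdh12, a retinal reductase, averaged 7.39 ± 0.20 in TgUmodC147W F2 and 5.83 ± 0.28 in TgUmodwt F2, where it was not detected, against 9.58 ± 0.21 in TgUmodC147W F1 and 6.47 ± 0.60 in TgUmodwt F1 (-1.54 ± 0.32, adjusted p = 0.0253). Without TgUmodC147W F1 replicate 2, Serpina6 passed (-1.91, adjusted p = 0.0143), and Serpina10 (-1.83, adjusted p = 0.0939) and Rdh12 (-1.48, adjusted p = 0.0558) did not.

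**Figure D3:**
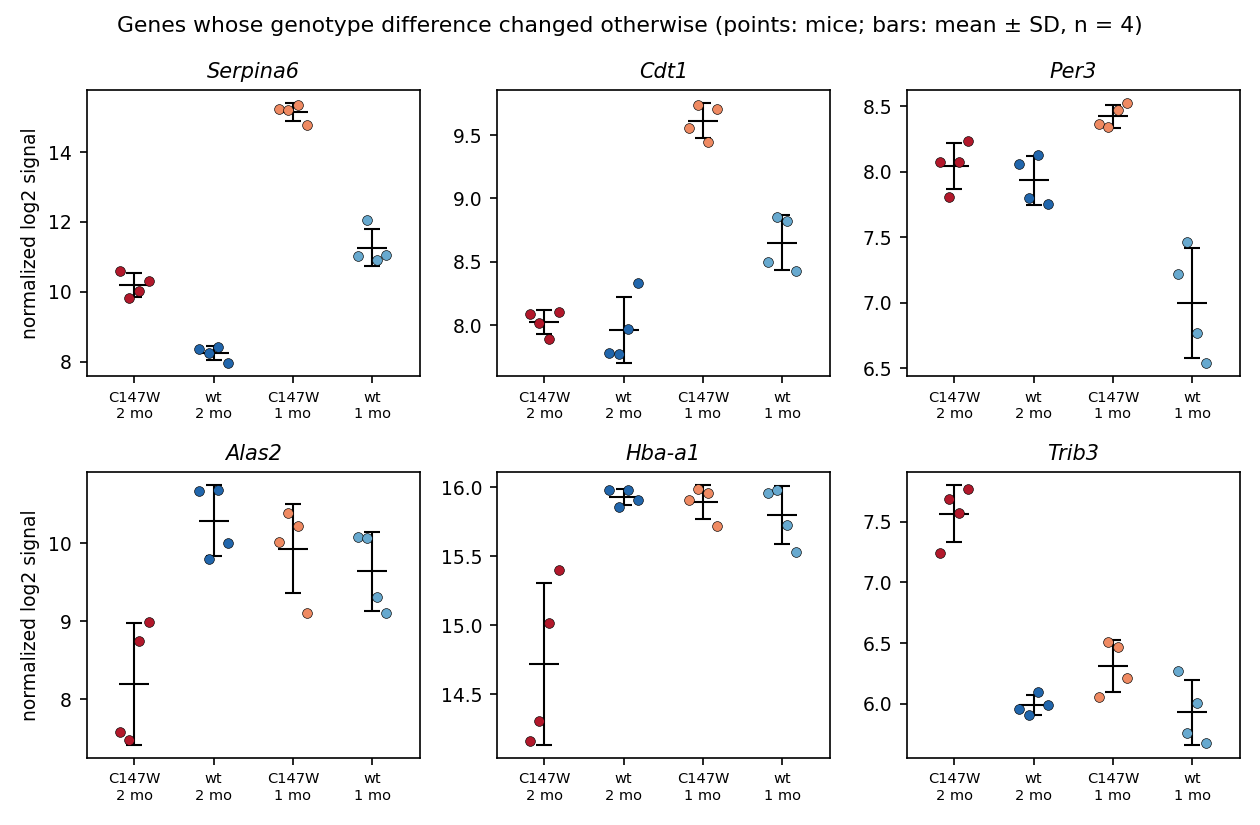
Normalized log2 signal of 6 genes in each mouse (points), with mean and SD of 4 mice per group (bars); vertical axes start above 0. Serpina6, Cdt1 and Per3 are highest in TgUmodC147W mice of 1 month, Alas2 and Hba-a1 are lowest and Trib3 highest in TgUmodC147W mice of 2 months.

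Genes of the cell cycle split by phase. Of 31 expressed members of this list, 21 were higher in mutants at 1 month and 13 at 2 months, 4 passed the interaction as negative and 1 as positive, and the median was -0.36. All 15 members that act in DNA replication had negative values, with a median of -0.61 and medians of 0.16 at 2 months and 0.90 at 1 month. Of the 14 members that act in mitosis, 12 had positive values, with a median of 0.17 and medians of 0.72 at 2 months and 0.47 at 1 month. This grouping was made after the values were seen and was not tested. Over the whole list 12 members had positive and 19 negative values, and those placed in neither phase had negative ones. All 31 members of the list were lower at 2 months than at 1 month in mutants, and 24 were in controls. The median difference between the ages was -1.12 in mutants and -0.50 in controls for replication genes, and -1.18 in mutants and -1.38 in controls for mitotic genes.

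The 4 negative calls were Cdt1 and Cdc6, which load the replicative helicase onto origins, Mcm4, a subunit of that helicase, and E2f1, a transcription factor of genes for the S phase. Cdt1 measured 8.09, 8.02, 7.89 and 8.10 in TgUmodC147W F2 mice and 7.78, 7.77, 7.97 and 8.33 in TgUmodwt F2 mice, against 9.56, 9.74, 9.45 and 9.71 in TgUmodC147W F1 mice and 8.50, 8.85, 8.82 and 8.43 in TgUmodwt F1 mice (-0.90 ± 0.18, adjusted p = 0.0235). Cdc6, named with Mcm4 after its value was seen, measured 5.99, 6.14, 6.23 and 5.83 in TgUmodC147W F2 mice and 5.92, 5.92, 5.82 and 5.95 in TgUmodwt F2 mice, against 7.06, 7.41, 7.02 and 7.17 in TgUmodC147W F1 mice and 6.07, 6.30, 6.41 and 6.16 in TgUmodwt F1 mice (-0.78 ± 0.15, adjusted p = 0.0187). Cdc6 was detected in all 4 TgUmodC147W F1 mice and in none of the other 3 groups, so the size of this value rests on signals at background. E2f1 averaged 7.64 ± 0.09 in TgUmodC147W F2, 7.20 ± 0.21 in TgUmodwt F2, 9.07 ± 0.27 in TgUmodC147W F1 and 7.82 ± 0.20 in TgUmodwt F1 (-0.82 ± 0.19, adjusted p = 0.0484), and Mcm4 had -0.76 ± 0.16 (adjusted p = 0.0276). The positive call was Cdc20, an activator of the anaphase-promoting complex, with 8.30 ± 0.10 in TgUmodC147W F2 and 7.02 ± 0.29 in TgUmodwt F2, against 9.49 ± 0.26 in TgUmodC147W F1 and 9.09 ± 0.20 in TgUmodwt F1 (0.88 ± 0.21, adjusted p = 0.0486), and its other 3 probes ranged from -0.19 to 0.95. Outside the list, Cdc45 (-1.05, adjusted p = 0.0157), Pole (-0.91, 0.0438), Mcm10 (-0.82, 0.0242) and Ung (-0.76, 0.00334), all of replication or uracil repair and named after their values were seen, also passed as negative, and without TgUmodC147W F1 replicate 2 Pole did not (0.0893). Cdc45 was detected in 4 and Pole in 2 TgUmodC147W F1 mice, and neither in the other groups of females. The sizes of their values thus rest on signals at background. Without TgUmodC147W F1 replicate 2, Cdc6 alone of the listed genes passed (adjusted p = 0.0379), Cdt1 had 0.0503, Mcm4 0.054, E2f1 0.0946 and Cdc20 0.0886, and all 15 replication genes still had negative values.

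**Figure D4:**
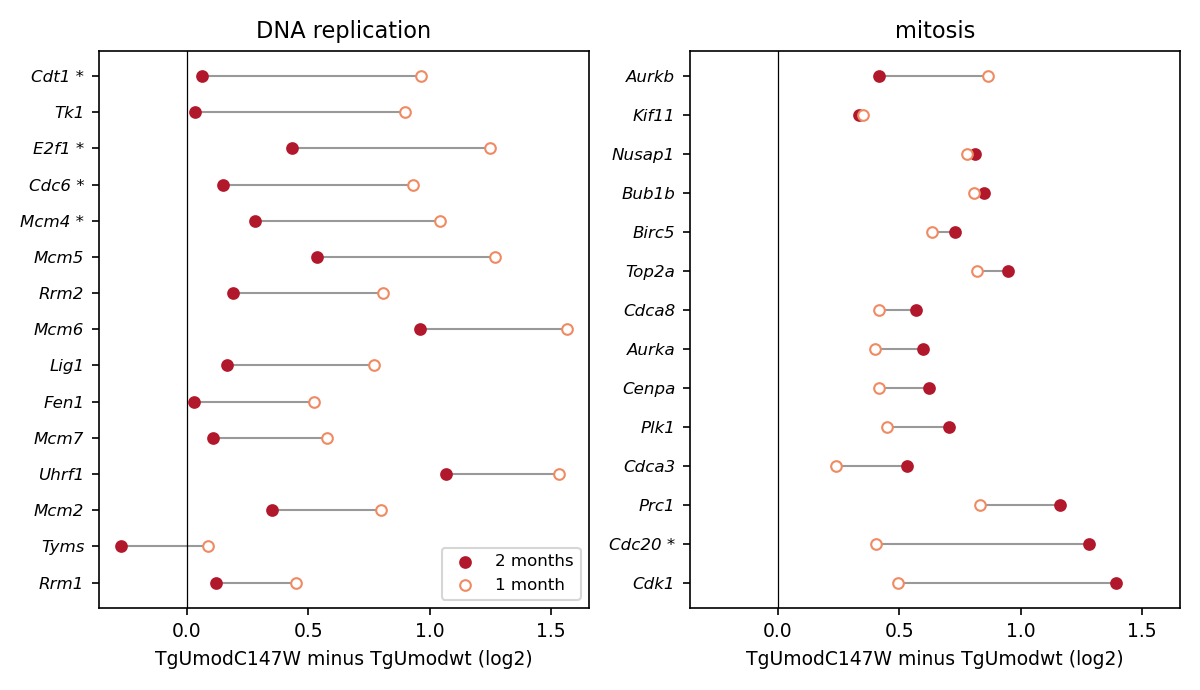
Genotype difference (TgUmodC147W minus TgUmodwt, log2) of the listed genes of DNA replication (left, 15 genes) and mitosis (right, 14 genes) at 2 months (filled) and 1 month (open), ordered by the interaction; an asterisk marks genes past the interaction test. Replication genes lie further left at 2 months than at 1 month, and 12 of 14 mitotic genes further right.

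E2F factors bind the letters TTTCCCGC and TTTGGCGC in promoters of replication genes. In RefSeq promoter windows of the GRCm38.p6 build (250 bases before to 50 after each gene's start), one of these on either strand stood in 5 of the 27 windows matched to expressed genes of the cell cycle list (18.5%), against 234 of 8223 windows of all genes tested (2.85%) and 441 of 27025 of the whole table (1.63%). Of the 70 matched windows of genes with a positive interaction none held them, and of the 37 with a negative one 2 did, Cdc6 and Cdt1. Both are printed 5′ to 3′ on the gene's strand because these genes carry the pattern above, with the match in capitals. The Cdc6 window is chr11:98907901-98908200 on the plus strand, and its match, the reverse complement GCGGGAAA, starts 138 bases before the start site. The Cdt1 window is chr8:122567765-122568064 on the plus strand, and its match starts 32 bases after the start site. A match is a description of the letters, and binding was not measured.
Cdc6: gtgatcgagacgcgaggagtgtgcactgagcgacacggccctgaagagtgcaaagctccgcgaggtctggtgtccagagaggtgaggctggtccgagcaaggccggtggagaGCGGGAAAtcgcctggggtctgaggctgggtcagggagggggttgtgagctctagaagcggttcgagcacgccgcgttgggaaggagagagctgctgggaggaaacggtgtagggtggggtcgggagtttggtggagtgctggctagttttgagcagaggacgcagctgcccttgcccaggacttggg
Cdt1: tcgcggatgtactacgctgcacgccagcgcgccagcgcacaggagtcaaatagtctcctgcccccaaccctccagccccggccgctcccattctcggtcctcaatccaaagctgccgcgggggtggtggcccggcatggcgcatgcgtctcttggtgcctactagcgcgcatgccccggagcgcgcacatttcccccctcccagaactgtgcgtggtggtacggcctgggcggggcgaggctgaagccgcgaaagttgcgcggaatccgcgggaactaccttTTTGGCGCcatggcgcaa

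Clock genes had the most negative median of all lists with at least 10 expressed genes, -0.57 over 13 genes, with medians of 0.12 at 2 months and 0.73 at 1 month. Per3, a repressor of the clock, passed the test (-1.31 ± 0.23, adjusted p = 0.00899). It measured 8.07, 7.81, 8.07 and 8.23 in TgUmodC147W F2 mice and 8.06, 7.80, 8.13 and 7.75 in TgUmodwt F2 mice, against 8.36, 8.34, 8.47 and 8.52 in TgUmodC147W F1 mice and 7.22, 7.46, 6.77 and 6.54 in TgUmodwt F1 mice. The low group were the controls of 1 month. Its other expressed probe had 0.04 and did not show this. Of the remaining members none passed. The repressors had negative values, with Per2 at -1.21 (adjusted p = 0.0574) and the output factor Dbp at -1.30 (adjusted p = 0.257), and the activators Arntl and Npas2 positive ones, 0.70 (adjusted p = 0.388) and 0.78 (adjusted p = 0.214). These genes swing over the day, and the hours at which mice of each group were killed are not given in the sources used here, so that hour and group cannot be told apart. Per3 had -1.34 without TgUmodC147W F1 replicate 2 (adjusted p = 0.017). The 14 expressed genes induced by glucocorticoids, also rhythmic, had a median of -0.38 and none passed, with Tsc22d3 at -0.93 (adjusted p = 0.0509) and Fkbp5 at -1.34 (adjusted p = 0.106).

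Hormone-related enzymes were among the further negative genes. Cyp27b1, which makes active vitamin D, was detected in all TgUmodC147W F1 mice (8.23, 6.57, 6.81 and 7.42) and in none of the TgUmodC147W F2 (5.46, 5.58, 5.39 and 5.31) or TgUmodwt F1 mice (5.70, 6.43, 6.01 and 6.01), and in 1 of the TgUmodwt F2 mice (6.95, 5.99, 5.96 and 5.69). Its interaction of -1.94 ± 0.42 (adjusted p = 0.0326; -2.17 and 0.0213 without TgUmodC147W F1 replicate 2) rests on groups near background, and TgUmodC147W F1 was at least 1.60-fold higher than TgUmodwt F1. Corin, the protease that activates atrial natriuretic peptide, averaged 7.89 ± 0.27 in TgUmodC147W F2, 8.28 ± 0.12 in TgUmodwt F2, 9.41 ± 0.52 in TgUmodC147W F1 and 8.46 ± 0.11 in TgUmodwt F1 (-1.34 ± 0.27, adjusted p = 0.0236, and 0.0495 without that array). Zcchc18, a zinc finger gene, had the smallest adjusted p on this side (-1.27 ± 0.15, adjusted p = 0.000569). It measured 7.69, 7.45, 7.48 and 7.49 in TgUmodC147W F2 mice and 6.97, 7.27, 7.37 and 7.33 in TgUmodwt F2 mice, against 8.64, 8.89, 8.71 and 8.54 in TgUmodC147W F1 mice and 7.20, 7.01, 7.30 and 6.99 in TgUmodwt F1 mice. Rad51ap2 (-1.95 ± 0.37, adjusted p = 0.0159), Mro (-1.60 ± 0.37, adjusted p = 0.0444) and Lingo4 (-1.26 ± 0.21, adjusted p = 0.00627) were not detected in any mouse of 2 months. At 1 month, Mro and Lingo4 were each detected in 3 TgUmodC147W F1 mice and in no TgUmodwt F1 mouse. Lingo4 measured 6.30 to 6.55 in TgUmodC147W F1, where the lowest detected signals of the arrays were 6.39 to 6.67. The sizes of these 3 values thus rest on groups at background. With TgUmodC147W F1 replicate 2 left out, Zcchc18 (0.00178), Rad51ap2 (0.0375) and Lingo4 (0.0159) passed and Mro (0.0893) did not.

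Transcripts of red cells gave a negative interaction through the mutants of 2 months. Alas2, the haem synthesis enzyme of erythroid cells, measured 7.58, 7.47, 8.75 and 8.99 in TgUmodC147W F2 mice and 10.67, 9.80, 10.68 and 10.00 in TgUmodwt F2 mice, against 10.02, 10.38, 10.22 and 9.10 in TgUmodC147W F1 mice and 10.08, 10.06, 9.31 and 9.10 in TgUmodwt F1 mice (-2.38 ± 0.51, adjusted p = 0.0289). The globins Hbb-b2 (-1.70 ± 0.33, adjusted p = 0.0207) and Hba-a1 (-1.31 ± 0.28, adjusted p = 0.0303) followed it. Hba-a1 measured 14.16, 14.31, 15.02 and 15.40 in TgUmodC147W F2 mice, and 15.86 to 15.98 in TgUmodwt F2, 15.72 to 15.99 in TgUmodC147W F1 and 15.53 to 15.98 in TgUmodwt F1 mice, close to the top of the scale, where differences are compressed. Of the 4 expressed genes of the red cell list 2 passed (Alas2 and Hba-a1), Hbb-bt had -0.99 (adjusted p = 0.0558), and Fech, used by all cells, -0.09. In a whole kidney, fewer red cells and less RNA per red cell cannot be told apart, nor can blood left in the organ. Without TgUmodC147W F1 replicate 2, Hbb-b2 (0.0434) passed, and Alas2 (0.066) and Hba-a1 (0.0657) did not.

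Few genes of inflammation, matrix and tubular injury passed the interaction test, although many were higher in mutants at both ages. Of 25 expressed genes of macrophages and monocytes, 18 were higher in mutants at 2 months and 20 at 1 month, with list medians of 0.92 and 0.97, and 1 passed the interaction test. This was Cd163, a scavenger receptor of resident macrophages, with 5.14 ± 0.22 in TgUmodC147W F2 and 5.09 ± 0.13 in TgUmodwt F2, against 6.65 ± 0.67 in TgUmodC147W F1 and 5.15 ± 0.19 in TgUmodwt F1. It was detected in 2 of 4 TgUmodC147W F1 mice and in no other female (-1.45 ± 0.32, adjusted p = 0.0376, and 0.0159 without TgUmodC147W F1 replicate 2). Of 34 expressed genes of the interstitial matrix, 26 were higher at 2 months and 28 at 1 month, and none passed the interaction, with values of -0.48 to 0.74. The 12 expressed genes of mesenchyme and smooth muscle had medians of 0.57 at 2 months and 0.80 at 1 month, and 8 were higher at either age. Their median interaction was -0.36, with 11 negative values, and none passed. Of 23 chemokines and cytokines 11 were higher at either age and none passed, and of 21 genes of tubular injury 13 were higher at either age and 1 passed, Cryab.

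Lcn2, an iron-siderophore binding marker of tubular injury, measured 10.87, 10.67, 11.35 and 10.95 in TgUmodC147W F2 mice and 6.66, 6.54, 6.61 and 6.55 in TgUmodwt F2 mice, against 10.27, 11.73, 10.78 and 10.80 in TgUmodC147W F1 mice and 6.69, 7.09, 6.35 and 6.61 in TgUmodwt F1 mice. The groups were apart at both ages. Its interaction was 0.16, with a 95% interval of -0.53 to 0.84. Lcn2 was detected in 1 TgUmodwt F2 mouse and 3 TgUmodwt F1 mice, so its controls lay near background. The injury receptor Havcr1 had 0.33 (-0.29 to 0.96), the collagen Col1a1 0.41 (-0.08 to 0.90), the intermediate filament Vim -0.31 (-0.74 to 0.12), and smooth muscle actin Acta2 -0.59 (-1.02 to -0.16, adjusted p = 0.193). The chemokine Ccl12 had -0.45 (-1.31 to 0.42) and Ccl5 0.38 (-0.28 to 1.05). Ccl12 was detected in no TgUmodwt F2 and 1 TgUmodwt F1 mouse, and Ccl5 in 1 TgUmodwt F2 and no TgUmodwt F1 mouse. These 2 values thus rest on controls at background. A missed threshold does not show that the differences were equal at both ages. Slc25a17, a peroxisomal carrier of cofactors, was lower in mutants at both ages, with 7.67 ± 0.24 in TgUmodC147W F2 and 9.30 ± 0.10 in TgUmodwt F2, against 7.59 ± 0.08 in TgUmodC147W F1 and 9.04 ± 0.16 in TgUmodwt F1 (-0.19, interval -0.53 to 0.14). Also, Ntn4 (0.11), Panx1 (0.23), Slc13a3 (0.07), Fut4 (0.18), Tgfb1 (-0.01), Col6a1 (-0.34), Atf3 (0.09), Adnp (-0.25), Gpx4 (0.25) and Spin1 (0.10), did not pass by their brightest probe, though 1 other probe each of Adnp (-0.55) and Gpx4 (0.68) did. Atf3 was detected in 1 mutant at each age and in no control, so its value rests on signals at background.

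**Figure D5:**
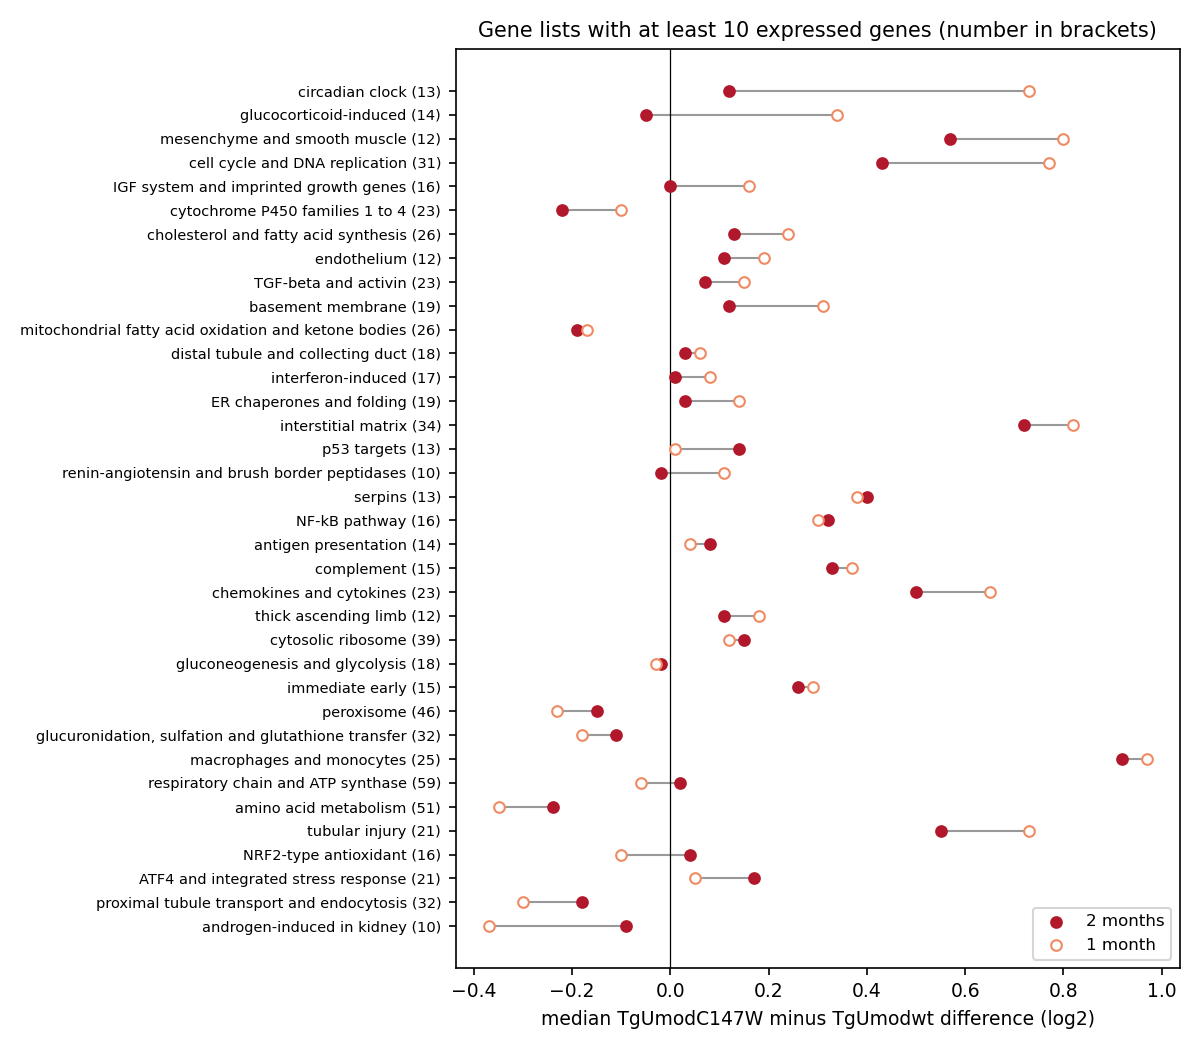
Median genotype difference (TgUmodC147W minus TgUmodwt, log2) at 2 months (filled) and 1 month (open) over the expressed genes of each list with at least 10 of them (number in brackets), ordered by the median interaction. Clock, glucocorticoid-induced, cell cycle, and mesenchyme and smooth muscle lists lie further left at 2 months, and macrophage and interstitial matrix lists lie near the same place at both ages.

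Umod, the gene of both transgenes, measured 15.91, 15.95, 15.94 and 15.87 in TgUmodC147W F2 mice and 15.66, 15.92, 15.76 and 15.87 in TgUmodwt F2 mice, against 15.93, 15.93, 15.89 and 15.89 in TgUmodC147W F1 mice and 15.83, 15.85, 15.80 and 15.82 in TgUmodwt F1 mice. Its interaction was 0.03 (interval -0.18 to 0.24), near the top of the scale, and the probe does not separate the transgenes from the mouse gene. Of 12 expressed genes of the thick ascending limb, 3 were higher in mutants at 2 months and 5 at 1 month, none passed the interaction, and their values lay between -0.22 and 0.24.

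The 8 males of 1 month, which did not enter the main fit, gave a separate look at the 1-month differences. They were normalized together with the females and entered an alternative fit over all arrays of the series. Of the 76 positive genes that were lower in female mutants at 1 month, 70 had a lower mean in TgUmodC147W than in TgUmodwt males, and in 55 (72.4%) every mutant male was below every control, against 15.7% of all genes. Their median difference was -0.90 in males, -1.17 in females of 1 month and 0.02 in females of 2 months. Of the 42 negative genes that were higher in female mutants at 1 month, 32 were higher in mutant males and in 26 (61.9%) every mutant male was above every control, against 21.8% of all genes. These 42 include the genes detected among females only in TgUmodC147W F1. Ly6f was not detected in any male, with 5.65 in TgUmodC147W and 6.08 in TgUmodwt. Means of E2f1 (8.98 in TgUmodC147W and 9.10 in TgUmodwt), Cdt1 (9.60 and 9.76) and Per3 (7.89 and 8.67) were lower in mutant males, against the direction in females of 1 month. These are descriptions with no test, and males of 2 months were not analysed here.

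How far single calls rested on 1 mouse differed between the genes. When each of the 16 arrays was left out in turn, 49 of the 132 genes (36 positive and 13 negative) passed every time. Among named genes, Sec14l3, Ly6f, Scgb1c1, Ces1f, Cyp2a4, Cyp2a5, Cyp2d9, C8a, Scd1, Slc22a7, Ldhd, Trib3, Serpina6, Per3 and Zcchc18 passed in all 16 fits. So did Fam107a, BC048644, Ddc, Id2, Hbb-b2, Rad51ap2 and Lingo4, and Cdc6, named after its value was seen. Rtkn2 passed in 15. Corin passed in 14, Slc13a4 in 13, Cdt1 and Cryab in 12, Rdh12 in 10, Ugt3a1 in 9, Cyp27b1 and Cyp4a12b in 8, Alas2 in 7, Hba-a1 in 6, and Haao, Cyp4a14 and Cd163 in 5. Serpina10, Cdc20 and E2f1 passed in 3 each, Ldc1 in 2, Higd1c and Mro in 1 each, and Entpd2 in 0.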

How the data were processed

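Total RNA of 1 kidney per mouse was put on Illumina MouseWG-6 v2.0 BeadChips. The authors read them with GenomeStudio and deposited raw signal intensities and a detection p-value per probe, next to a table of values they had normalized by cubic spline, used here as an alternative. The intensities were background-corrected and quantile-normalized over all 24 arrays with neqc (offset 16), giving log2 values, which were computed here and are not the deposited ones. All probes detected (p under 0.01) on 1 or more female arrays entered 1 fit of 4 group means in limma 3.58.1 (R 4.3.3), with Benjamini-Hochberg adjustment over 19017 probes and a threshold of 0.05. Other steps used Python 3.11.15 and pandas 2.3.3. A probe was given a gene name only where the IDs of both deposited tables paired it with the same one, and 3159 expressed probes stayed unnamed. Near-identical paralogs (Cyp2a, globin, Ces1 and Ly6 families) may share signal.

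Named genes were the 15 largest positive and 15 largest negative interactions past the test, and up to 3 members per gene list that also passed. Umod and genes the study's text names were added, where expressed. The members, the 44 gene lists and the tests were chosen with earlier results of these data known. ± is the SE of a fitted difference or the SD of 4 mice for a level. Arrays limit precision by their number, and p-values measure the spread between mice of 1 line. The fit was tested on simulated data. Alternatives changed the normalization, the filter, the arrays fitted, the prior, the probe rule and each array left out.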

Additional observations from a re-analysis of the deposited data

Results flagged for a closer look

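Among 252 groups of 4 mice (the named genes in each group), 13 held a mouse whose level stood far from the other 3. In independent groups the rule flags about 1 in 20 by chance. These genes share the same mice, so that rate cannot tell whether the flags arose by chance. TgUmodC147W F1 replicate 4 was the high mouse for Sec14l3 (6.84), Ly6f (6.57) and Scgb1c1 (7.26). TgUmodC147W F2 replicate 2 was high for Cyp2a4 (11.93) and Cd163 (5.47) and low for Slc13a4 (9.47). Among controls of 2 months, replicate 1 was high for Ces1f (11.54) and replicate 4 low for Rad51ap2 (5.57). Among controls of 1 month, replicate 2 was high for Serpina6 (12.05) and low for Atf3 (5.01), and replicate 4 was low for Hbb-b2 (10.22) and high for Cyp4a14 (13.60) and Ntn4 (8.26).

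Of all 10148 genes, 82 (0.808%) passed limma's interaction test at an adjusted p under 0.05 as positive and 50 (0.493%) as negative. Among the 63 named genes, the genotype difference at 2 months differed from that at 1 month by this test for 42. This share was fixed by the choice of genes, since these 42 were named because they passed. The positive log2 differences were 4.97 for Sec14l3, 4.73 for Ly6f, 3.94 for Scgb1c1, 3.80 for Ces1f, 3.39 for Cyp2a4, 3.04 for Cyp2a5, 2.86 for Cyp2d9, 2.68 for C8a and 2.55 for Scd1. Fam107a had 2.40, Slc13a4 2.26, BC048644 2.25, Higd1c 2.14, Ldc1 2.06, Slc22a7 2.02, Ldhd 1.64, Ugt3a1 1.42, Trib3 1.20, Ddc 1.04, Cdc20 0.88, Haao 0.83, Cryab 0.81 and Id2 0.72. The negative ones were -2.38 for Alas2, -2.07 for Serpina10, -1.95 for Rad51ap2, -1.94 for Cyp27b1, -1.93 for Serpina6, -1.70 for Hbb-b2, -1.68 for Rtkn2, -1.60 for Mro and -1.54 for Rdh12. Cd163 had -1.45, Corin -1.34, Hba-a1 -1.31, Per3 -1.31, Zcchc18 -1.27, Lingo4 -1.26, Cyp4a12b -0.93, Cdt1 -0.90, E2f1 -0.82 and Cyp4a14 -0.71.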

How the results depend on the processing

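The 42 named genes past the interaction test kept their direction in every alternative run, and 16 passed in all of them. Of 1696 fits of single named genes, 237 lost the call, 1 gained it and none reversed. Counts of interaction genes moved more, and the causes were not tested. There were 46 positive genes with scaling to a common median, which also gave 654 genes lower in mutants at 2 months, 543 lower with age in TgUmodC147W and 898 higher with age in TgUmodwt. Without the filter on dim probes there were 37 positive and 17 negative genes, 24 and 5 of them over 2-fold. One fit over 24 arrays gave 131 positive and 89 negative. The authors' values gave 13 negative genes over 2-fold, and no background correction 14. Calling a gene by any of its probes, an alternative chosen after seeing the data, gave 95 and 70.

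Leaving out 1 array gave 41 to 202 positive and 18 to 103 negative genes, and 27 to 104 and 10 to 35 over 2-fold. The fewest positive came without TgUmodwt F1 replicate 1, the fewest negative without TgUmodwt F2 replicate 3, and the most of both without TgUmodC147W F1 replicate 4. Higher and lower genes ranged over 401 to 617 and 198 to 390 for genotype at 2 months, 948 to 1309 and 704 to 992 at 1 month, 639 to 870 and 689 to 966 for age in TgUmodC147W, and 92 to 212 and 127 to 231 in TgUmodwt. With a replicate block, 74 positive and 35 negative genes passed, but mice share only a number, since deviations of the 24 same-numbered pairs correlated at -0.36 to 0.34, with 7 above 0.1.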

Other observations

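Akr1c18, a steroid reductase that inactivates progesterone, had an interaction of 2.33 ± 0.84 that did not pass (limma, adjusted p = 0.22). It measured 11.59, 11.45, 11.45 and 11.49 in TgUmodC147W F2 mice and 11.53, 11.42, 11.47 and 11.53 in TgUmodwt F2 mice, against 9.42, 8.42, 7.57 and 12.07 in TgUmodC147W F1 mice and 11.50, 11.92, 11.82 and 11.53 in TgUmodwt F1 mice. Mutant replicates 1 to 3 of 1 month lay below all other mice, and replicate 4 above them.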
